A study of Mus musculus with 5 samples.

Results

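Dio2 and 7 other genes of thyroid hormone signalling were followed in mouse bone marrow-derived macrophages: the transporter gene Slc16a10, the receptor genes Thra and Thrb, the receptor partner genes Rxra and Rxrb, the corepressor gene Ncor1 and the coactivator gene Ncoa1. These 8 of 20583 gene symbols in the count table were found by name, and each gene is represented by its transcript row with the highest mean read count over the 5 libraries. The set was chosen by the counts of Dio2, which an earlier look at these same libraries had shown lower in NICcA, so the genotype differences of the 8 genes are descriptions, and the counts of them past a threshold support nothing. Dio2 had a mean of 12.5 ± 2.13 CPM (counts scaled to library size by TMM; SD, n = 3) in wild type and of 2.87 ± 0.104 CPM (SD, n = 2) in NICcA.

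The macrophages were grown from bone marrow of mice 7 to 8 weeks old on a C57BL/6 background, with 25 ng/ml of the growth factor M-CSF for 7 days in both groups. Wild type had 3 libraries, numbered 1 to 3, and NICcA had 2, numbered 2 and 3. What the genotype name stands for, and which promoter or cell type drives the allele, is not stated in the sources used. Nor is it stated that the libraries within a genotype are from different mice, so the p-values rest on a spread that may be technical.

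Thyroid hormone leaves the thyroid mostly as the prohormone T4. Inside a target cell the type 2 deiodinase, encoded by Dio2, removes an iodine from the outer ring and makes the active hormone T3, so that a cell with this enzyme can set its own T3 level. T3 binds the nuclear receptors encoded by Thra and Thrb, which sit on DNA as heterodimers with RXR proteins, recruit corepressors without hormone and exchange them for coactivators when hormone binds. Macrophages have been described to carry this enzyme and these receptors.

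The enzyme made from Dio2 is a selenoprotein: its reading frame holds TGA codons that are annotated as selenocysteine and not as stops. GENCODE M21 (build GRCm38) annotates 2 of them in Dio2, both in exon 2 of 2 on the minus strand of chromosome 12, as codons 130 (chr12:90729823-90729825) and 263 (chr12:90729424-90729426). They are shown with 12 bases on either side and the TGA in capitals, because they are why genes for selenocysteine insertion were put beside Dio2.
Dio2 codon 130: ggttcagccaccTGAccacctttcact
Dio2 codon 263: ttcagcaagagaTGAattctagattag

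The 250 bases before the RefSeq start of Dio2 (GRCm38.p6, chr12:90739039-90739288, minus strand) are shown because Dio2 is known as a gene that cyclic AMP switches on through a cyclic AMP response element, and genes of that route are among the lists described here. Capitals mark the element TGACGTCA, found at -95 to -88 from the start, and the TATA-type motif TATAAAAG, found at -30 to -23.
Dio2 promoter: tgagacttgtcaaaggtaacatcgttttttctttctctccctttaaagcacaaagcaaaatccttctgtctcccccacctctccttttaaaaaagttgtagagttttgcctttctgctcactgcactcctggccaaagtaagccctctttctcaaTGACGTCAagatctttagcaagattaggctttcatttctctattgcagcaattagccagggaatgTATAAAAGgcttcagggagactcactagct

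Of all 32851 promoter windows of this length in the RefSeq table, 1.55% held TGACGTCA, which reads the same on both strands, and 1.06% held TATAAAAG on the gene's own strand. Among the 11 windows of the 7 genes with an entry (Thra has none), those of Dio2 alone held either. The letters GTGGGAA, bound by the Notch partner Rbpj, were in 5.42% of all windows on either strand and in none of these 11. GENCODE M21 places the start of Dio2 600 bases further downstream than RefSeq. Nothing measured here bears on the use of any of these motifs.

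Library totals ranged from 57442309 to 76562905 counts over all transcript rows. Hes1, a direct target of Notch signalling, was at 0.0174 to 0.0911 CPM in wild type and in NICcA replicates 2 and 3 at 2.77 and 1.73 CPM, while Notch1 was at 67.4 to 78.5 and at 84.2 and 87.6 CPM. The summed level of 8 macrophage markers was 14577 to 20769 CPM in wild type and 12166 and 12983 CPM in NICcA, and 0 of the 8 were below 1 CPM in every library. The sum was lower in NICcA without overlap, but most of it was lysozyme (Lyz2, at 11521, 14308 and 17517 CPM in wild type and 9302 and 10411 in NICcA), and the list did not move as one. In it 4 markers were lower without overlap, while Fcgr1 was higher without overlap (log2 fold change 0.91, SE 0.26) and Itgam (0.47, SE 0.36), Emr1 (0.16, SE 0.20) and Csf1r (-0.16) overlapped. Summed markers were higher in NICcA without overlap for neutrophils (8 found, 54.7 to 104 CPM in wild type against 110 and 126 in NICcA). The same held for mast cells and basophils (6 found, 8.10 to 20.2 against 33.1 and 28.3). It also held for T cells (6 found, 1.39 to 1.93 against 3.25 and 2.09) and erythroid cells (4 found, 0.450 to 0.607 against 0.808 and 0.652). But 5 of the 6 T cell, 4 of the 4 erythroid, 4 of the 6 mast cell and 3 of the 8 neutrophil markers stayed below 1 CPM in every library. Most of the mast cell sum was Kit and Cpa3. Kit overlapped (9.80, 11.4 and 5.42 against 9.69 and 11.9 CPM), while Cpa3 did not (10.3, 5.40 and 2.31 against 22.7 and 15.8). Cd4, the largest T cell marker, overlapped, while 3 others were higher without overlap. Summed markers overlapped for dendritic cells (8 found, 727 to 926 against 1019 and 671 CPM), osteoclasts (5 found, 325 to 756 against 345 and 295), megakaryocytes (4 found, 18.9 to 37.6 against 46.8 and 36.04) and B cells (5 found, 0.416 to 1.002 against 0.568 and 0.665). The osteoclast list held opposite members: Mmp9, a matrix protease gene, had wild type levels of 0.833, 0.901 and 1.32 CPM and NICcA levels of 20.9 and 22.4 CPM (log2 fold change 4.41, SE 0.23, edgeR adjusted p = 0.0067), and Ctsk, the cathepsin K gene, was lower without overlap (-1.82, SE 0.54, adjusted p = 0.30). The dendritic sum was mostly Itgax (at 661, 808 and 848 CPM in wild type and 805 and 551 in NICcA). In that list 5 of 8 markers were higher in NICcA without overlap, and the median log2 fold change was 1.08. Below 0 were Clec9a (-1.14, SE 0.50) and Itgax (-0.19, SE 0.21), both with overlap, and 2 of the 8 stayed below 1 CPM in every library. Over all genes tested, 18.5% were lower and 18.3% higher without overlap. No marker of any list was at 0 in all libraries. The 8 stromal markers, of cells such as fibroblasts, summed to 18.7 CPM in wild type replicate 1 and to 1.55 to 3.16 CPM in the other 4 libraries. In such bulk samples fewer cells of a type and less RNA per cell cannot be told apart.

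Dio2 had counts of 582, 958 and 937 in wild type replicates 1, 2 and 3 and of 197 and 202 in NICcA replicates 2 and 3. Scaled for library size this was 10.1, 13.1 and 14.2 CPM against 2.95 and 2.80 CPM. The groups lay far apart: the highest NICcA value was 29.2% of the lowest wild type value, and the NICcA libraries differed little from each other. The mean in NICcA was 23.1% of that in wild type, a 4.34-fold lower level (log2 fold change -2.12, SE 0.20, from edgeR's quasi-likelihood fit). Among 9395 genes at a mean of at least 5 CPM, 4 genes, Dio2 included, had a log2 fold change at or below that of Dio2.

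Wild type replicate 1, the library with the stromal signal, had the lowest Dio2 of the 3 wild type libraries. Without it the log2 fold change of Dio2 was -2.24 (SE 0.17), and over all fits that left out 1 library it lay between -2.24 and -2.01. In the libraries with low Dio2 the summed macrophage markers, mostly Lyz2, were lower. The summed neutrophil, mast cell, T cell and erythroid markers were higher, with the T cell and erythroid markers mostly below 1 CPM. Of the 8 dendritic markers, 5 were also higher, though their sum, mostly Itgax, overlapped. The part of any of these in the level of Dio2 was not tested.

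**Figure D1:**
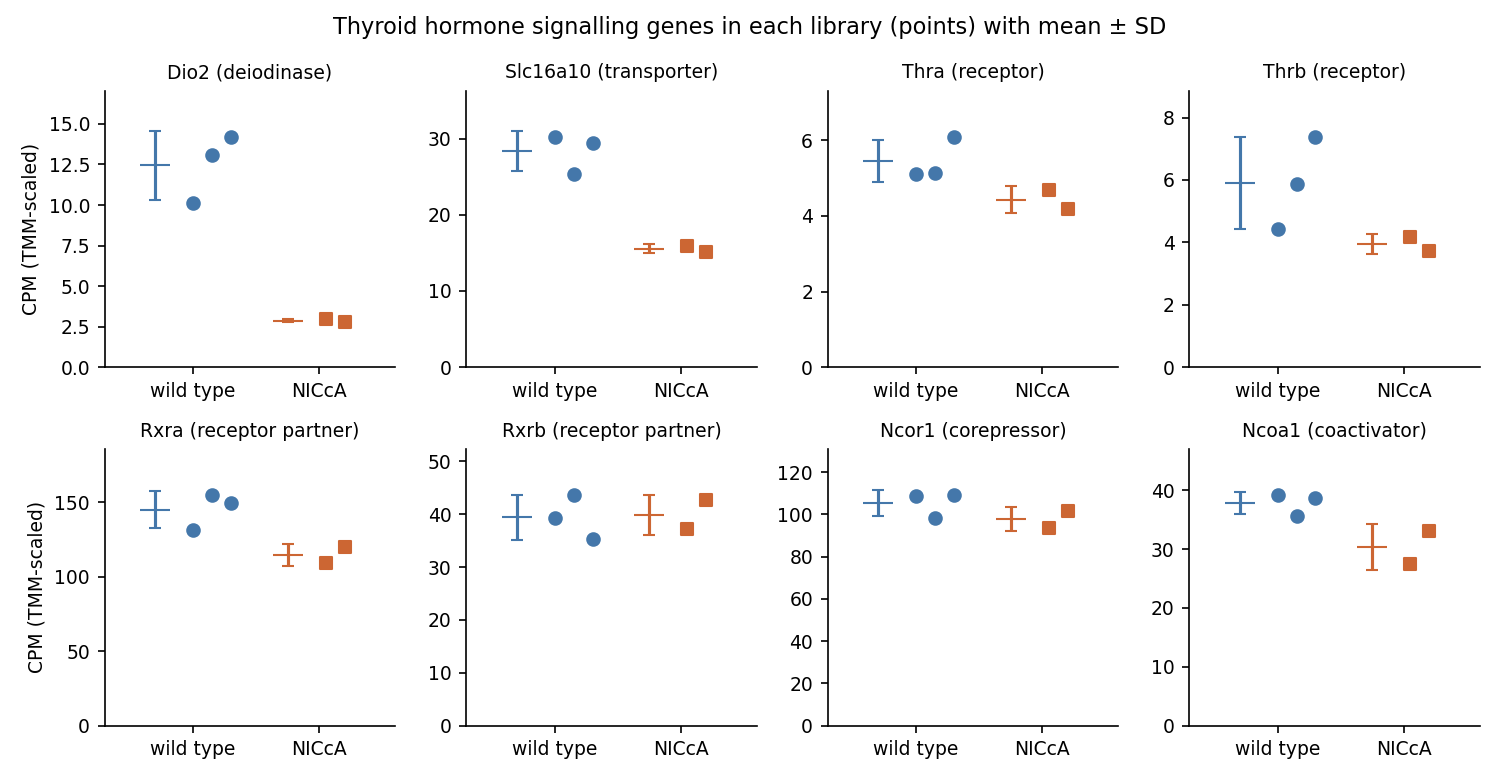
CPM (TMM-scaled counts, y axes from 0) of the 8 genes in 3 wild type libraries (circles) and 2 NICcA libraries (squares), with the group mean and SD beside the points. Dio2 and Slc16a10 show the widest gaps between the groups, and the groups overlap for Rxrb and Ncor1.

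The other deiodinase genes were barely detected. Dio1, an activating and clearing enzyme of liver and kidney, had 1 count in wild type replicate 3 and 0 in the other libraries, where a count of 0 allows up to 3 counts, or 0.0521 CPM in the smallest library (counting error only). Dio3, whose enzyme inactivates T4 and T3, had wild type counts of 2, 0 and 5 and NICcA counts of 0 and 2. Dio2 was thus the only deiodinase gene with enough counts to pass the low-count filter of the main fit.

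Slc16a10 encodes MCT10, a membrane transporter of aromatic amino acids that also carries T3. It was at 30.3, 25.3 and 29.4 CPM in the wild type libraries, against 16.0 and 15.1 CPM with NICcA. As with Dio2, the NICcA libraries were close to each other and below every wild type library, at 54.8% of the wild type mean (log2 fold change -0.87, SE 0.13). Its other transcript row, NM_028247, held 35.0% of the mean count of NM_001114332, the row used here, and was less even, at 6.39, 10.7 and 10.8 CPM in the wild type libraries, against 6.22 and 5.81 CPM with NICcA (log2 fold change -0.63, SE 0.26). On that row wild type replicate 1 lay beside the NICcA libraries, which it did not on the main row.

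Both receptor genes were expressed at a low level. Thra was at 5.12, 5.15 and 6.10 CPM in the wild type libraries, against 4.68 and 4.17 CPM with NICcA (log2 fold change -0.30, SE 0.17). The groups did not overlap, but the gap between the closest libraries was small, the highest NICcA value being 91.5% of the lowest wild type value. In RefSeq's annotation Thra overlaps Nr1d1, a clock repressor gene, and no strand setting for the counting is given, so their shared reads cannot be told apart. Nr1d1 itself was at 1.79, 1.19 and 2.504 CPM in the wild type libraries, against 1.47 and 1.77 CPM with NICcA, with overlapping groups (log2 fold change -0.17, SE 0.36, and -0.41 to 0.13 when 1 library was left out).

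Thrb was at 4.42, 5.88 and 7.39 CPM in the wild type libraries, against 4.17 and 3.72 CPM with NICcA (log2 fold change -0.58, SE 0.25). The wild type libraries were themselves spread widely, and replicate 1 was close to NICcA replicate 2. Without wild type replicate 3 the log2 fold change was -0.39, and without wild type replicate 1 it was -0.75. The other Thrb row, NM_009380, carried 89.1% of the counts of the main row and had a log2 fold change of -0.60 (SE 0.25), but the rows share reads and are not separate evidence. RefSeq places further genes over Dio2 (the lncRNA Gm26512), Slc16a10, Thrb, Ncor1 and Ncoa1, and none over Rxra and Rxrb, and reads of such overlaps cannot be told apart without a strand setting.

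Of the receptor partners, Rxra encodes the RXR form that dominates in myeloid cells. It was at 131, 155 and 149 CPM in the wild type libraries, against 109 and 120 CPM with NICcA, again without overlap (log2 fold change -0.34, SE 0.12). Rxrb was at 39.3, 43.6 and 35.3 CPM, against 37.2 and 42.6 CPM, with the groups interleaved (log2 fold change 0.02, SE 0.13). The third form, Rxrg, had at most 4 counts in a library and did not pass the low-count filter.

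The corepressor gene Ncor1, which brings histone deacetylase to receptors without hormone, was at 109, 98.4 and 109 CPM in the wild type libraries, against 93.8 and 102 CPM with NICcA. The groups overlapped (log2 fold change -0.11, SE 0.10), and the sign turned with the authors' RPKM in place of counts (0.01, SE 0.10 with a pseudocount of 1). Ncoa1, also called SRC-1, a coactivator that binds hormone-loaded receptors, was at 39.2, 35.6 and 38.6 CPM, against 27.5 and 33.1 CPM, without overlap (log2 fold change -0.32, SE 0.12). Without NICcA replicate 2 its log2 fold change was -0.19, and without NICcA replicate 3 it was -0.46.

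Across the 8 genes, 7 log2 fold changes were below 0 and the median was -0.33, where the median over all 13341 genes tested, which these 8 passed the count filter to join, was 0.00. Below 0 were 49.5% of all genes. Libraries did not overlap and were lower in NICcA for 6 of the 8 genes (Dio2, Slc16a10, Thra, Thrb, Rxra and Ncoa1), against 18.5% of all genes, or 36.8% in either direction. With library totals alone, or with the authors' RPKM, Ncoa1 overlapped and the count was 5. Of the 8 genes, 0 passed edgeR's quasi-likelihood test at an adjusted p of 0.05, where 0.0300% of all genes did (4 genes, all higher in NICcA). At an unadjusted p below 0.05 stood 4 of the 8, all lower, against 14.5% of all genes in either direction (911 lower and 1025 higher). DESeq2 called 2 of the 8, Dio2 and Slc16a10, against 1.94% of all genes lower and 4.03% in either direction. The fit with no low-count filter called 1 of the 8, Dio2, against 0.00519% of genes lower and 0.0571% in either direction. The count of 4 genes over the whole table was 0 without wild type replicate 2, 0 without NICcA replicate 2 and 44 without NICcA replicate 3, and 0 of the 8 were called in any of these fits. Because the gene set was chosen with the earlier result in view, nothing is read from these counts.

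**Figure D2:**
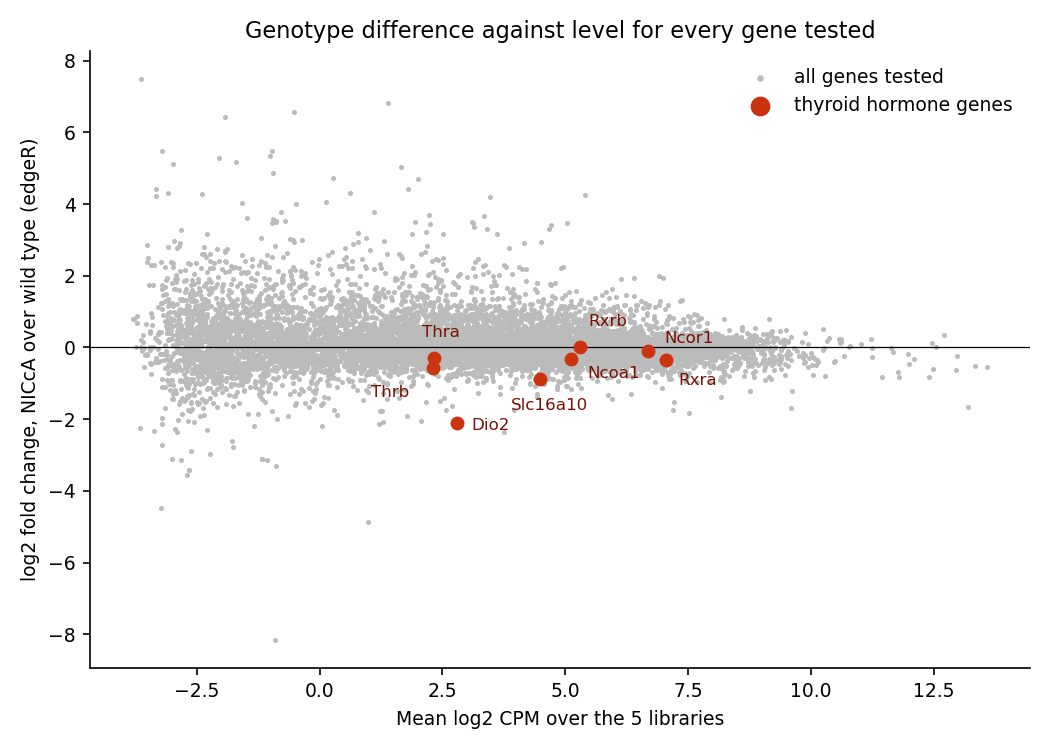
Log2 fold change of NICcA over wild type (edgeR, y axis) against the mean log2 CPM over 5 libraries (x axis), 1 grey point for each of 13341 genes, with the 8 thyroid hormone genes in red. Dio2 lies at -2.12 on the lower edge of the genes at its level, Slc16a10 at -0.87, and the other 6 lie between -0.58 and 0.02, inside the main cloud.

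Levels of different genes were compared on the authors' RPKM, which divides by transcript length. In wild type the order of the mean RPKM was Rxra (21.7 ± 1.36), Rxrb (11.8 ± 1.26), Ncor1 (9.39 ± 0.677), Slc16a10 (4.15 ± 0.458), Ncoa1 (4.07 ± 0.278), Thra (1.91 ± 0.176), Dio2 (1.69 ± 0.252) and Thrb (0.773 ± 0.180; mean ± SD, n = 3). The ranges of Slc16a10 and Ncoa1 overlapped, as did those of Thra and Dio2, and the other neighbours in this order did not. In NICcA, Dio2 was last, at 0.431 and 0.411 RPKM, below Thrb at 0.592 and 0.529, and Slc16a10, at 2.52 and 2.39, lay below Ncoa1, at 3.20 and 3.86. Thra stood above Thrb in all 5 libraries.

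**Figure D3:**
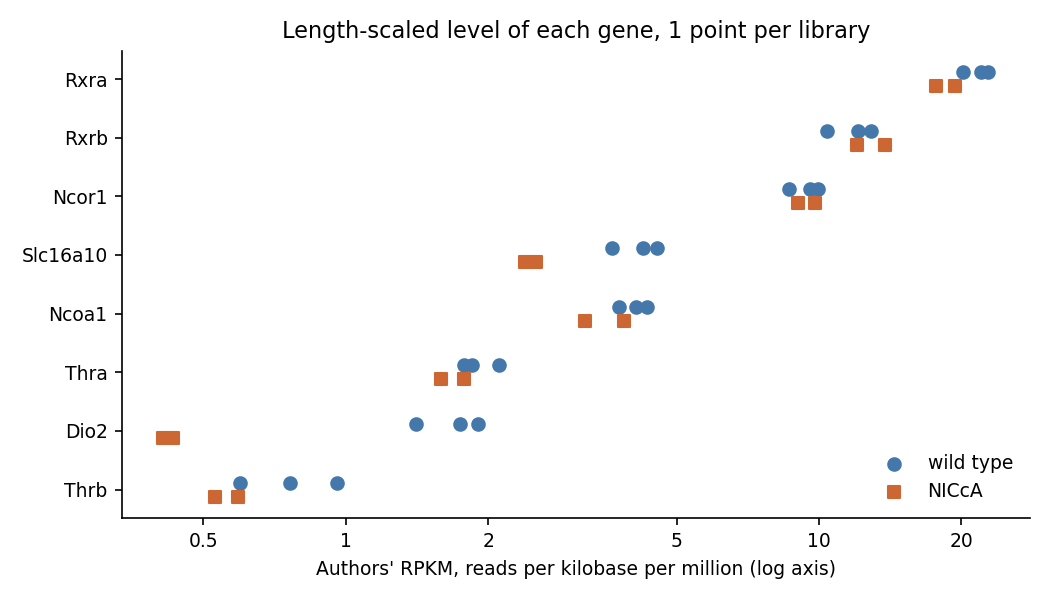
Authors' RPKM (reads scaled to transcript length and library size, log axis) of the 8 genes, 1 point per library, with wild type as circles and NICcA as squares. Dio2 moves from the level of Thra in wild type (1.41 to 1.90 RPKM) to below Thrb in NICcA (0.411 and 0.431 RPKM).

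The rest of the pathway was taken from lists by role, of which 92 further genes were found and 77 had enough counts to be tested. Of these 77, 0 passed edgeR's adjusted threshold. At an unadjusted p below 0.05, 7 of the 77 were higher and 11 lower, beside 1025 higher and 911 lower of all 13341 genes tested. DESeq2 called 4 higher (Slco4a1, Fasn, Eefsec and Vdr) and 4 lower (Wsb1, Klf9, Gpx3 and Pparg), so for these genes the call depends on the method. It called 4.03% of all genes in either direction. NICcA libraries lay below all wild type libraries for 20 of the 77 and above them for 9, beside 18.5% and 18.3% of all genes, and the median log2 fold change was -0.05. Counts without overlap in the lists below are to be read beside these shares of all genes. Below, the genes with the smallest p of each list are named, and adjusted p-values are edgeR's over all rows.

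Genes that act on the deiodinase protein differed little in size. Wsb1, the hedgehog-induced subunit of a ubiquitin ligase that marks the enzyme for destruction, was at 102, 113 and 121 CPM in the wild type libraries, against 84.8 and 84.6 CPM with NICcA (log2 fold change -0.41 with an SE of 0.11, adjusted p = 0.29). Marchf6, another ubiquitin ligase for it, was at 71.5, 64.6 and 86.9 CPM, against 54.8 and 56.6 CPM (log2 fold change -0.42 with an SE of 0.15, adjusted p = 0.32). Of the 8 genes in this list, 5 had a log2 fold change below 0 and 4 did not overlap, all lower, against 18.5% of all genes.

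Transporters of thyroid hormone differed in direction. Slco4a1, an organic anion transporter that carries T3 and T4, was at 87.4, 96.4 and 88.2 CPM in the wild type libraries, against 140 and 121 CPM with NICcA (log2 fold change 0.53 with an SE of 0.11, adjusted p = 0.27). Slc7a5, the light chain of the large neutral amino acid transporter LAT1, was chosen after its values were seen. It was at 14.5, 10.8 and 3.43 CPM in the wild type libraries, against 50.2 and 28.3 CPM with NICcA (log2 fold change 2.04 with an SE of 0.57, adjusted p = 0.29). Both were higher where Slc16a10, the third non-overlapping gene of the 6 tested transporters, was lower. Crym, a cytosolic T3-binding protein gene, had at most 3 counts in a library and did not pass the low-count filter.

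Among 6 corepressor complex genes, 1 did not overlap. This was Tbl1xr1, at 166, 144 and 175 CPM in the wild type libraries, against 115 and 142 CPM with NICcA (log2 fold change -0.33 with an SE of 0.15, adjusted p = 0.36). When 1 library was left out, its value lay between -0.49 and -0.19. Among 11 coactivator genes the median log2 fold change was -0.08, with 4 genes lower and 1 higher without overlap. The higher one, Prmt1, an arginine methyltransferase, was at 11.4, 12.1 and 9.26 CPM, against 14.9 and 13.96 CPM (log2 fold change 0.40 with an SE of 0.15, adjusted p = 0.34).

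Genes known as T3 targets went both ways, 7 above and 5 below 0, with a median of 0.04. That median rested on single libraries, at -0.22 without NICcA replicate 2 and 0.28 without NICcA replicate 3, so no direction is read from it. Klf9, a transcription factor gene that T3 induces directly in several tissues and that glucocorticoids also induce, was at 76.8, 74.8 and 69.8 CPM in the wild type libraries, against 43.4 and 48.3 CPM with NICcA. The wild type libraries were close together and both NICcA libraries lay well below them (log2 fold change -0.69 with an SE of 0.11, adjusted p = 0.27). The gene of fatty acid synthase, Fasn, which has many other regulators, went the other way, at 122, 123 and 87.4 CPM, against 210 and 181 CPM (log2 fold change 0.82 with an SE of 0.18, adjusted p = 0.27). Hr, another directly induced gene, was picked with its values in view, and its groups overlapped, at 30.8, 38.5 and 36.9 CPM, against 48.9 and 32.9 CPM (log2 fold change 0.21 with an SE of 0.20, adjusted p = 0.62).

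**Figure D4:**
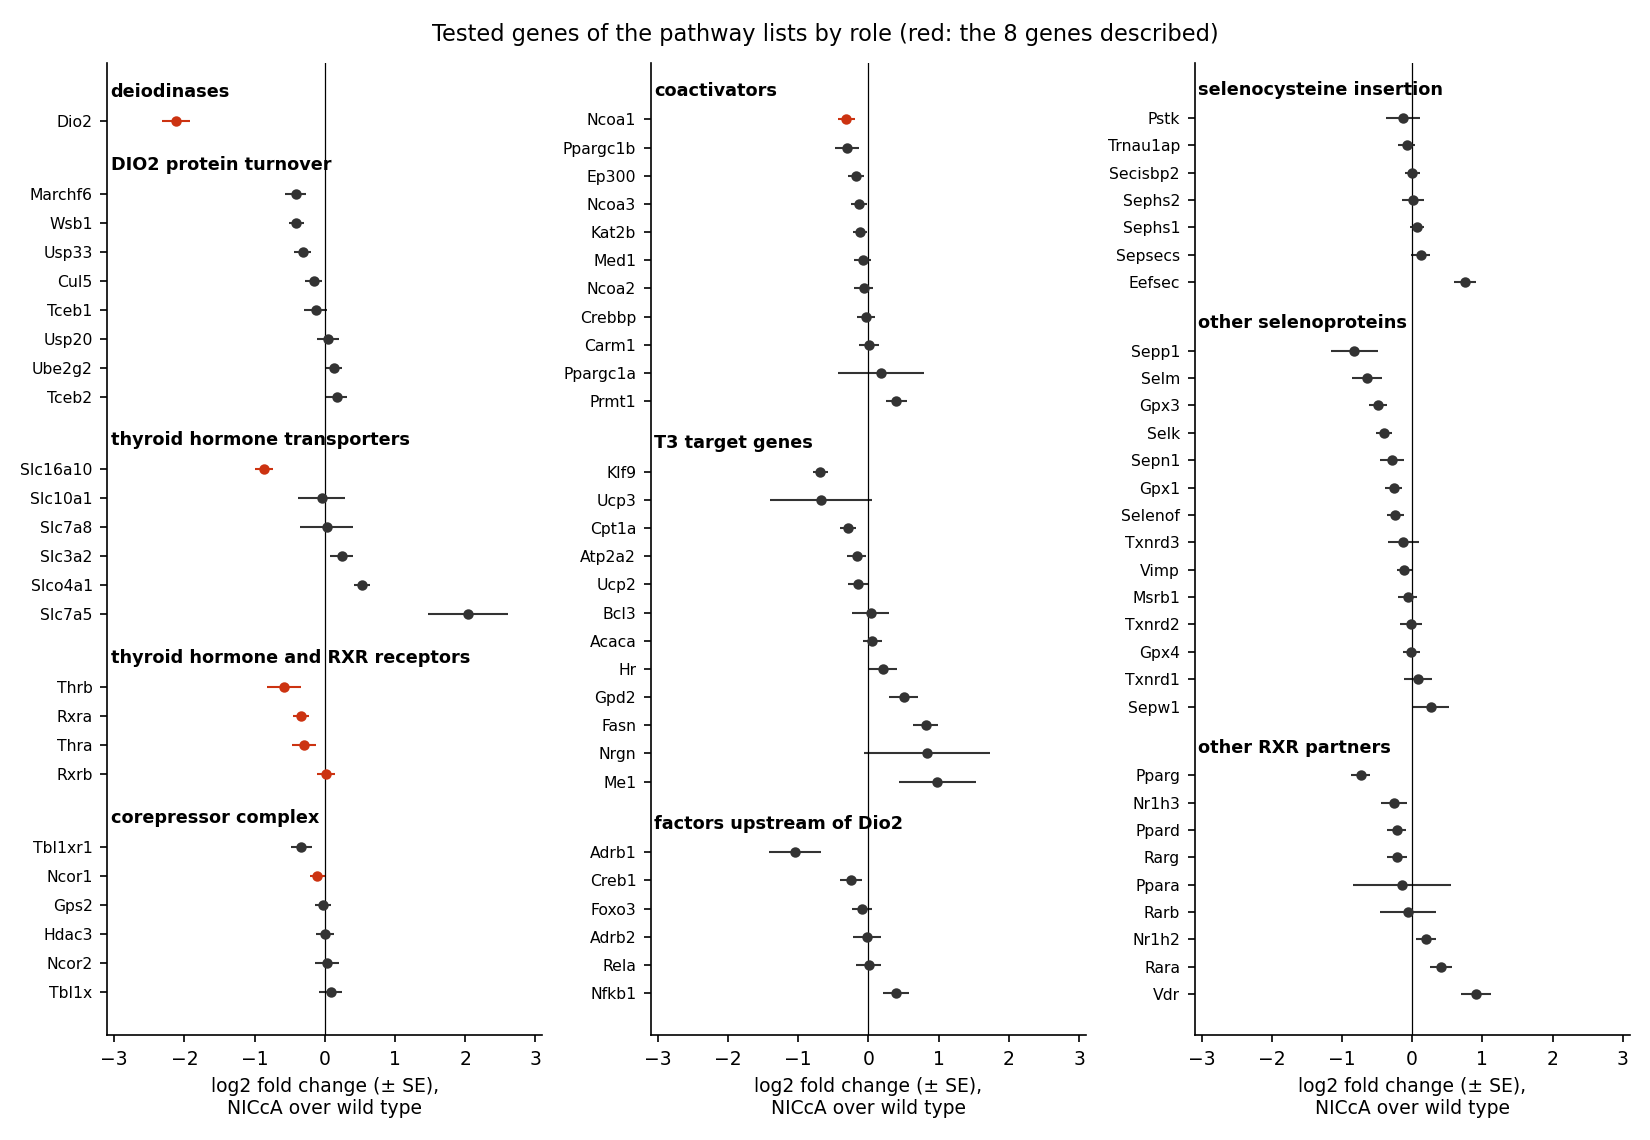
Log2 fold change of NICcA over wild type (edgeR, points with SE bars) for the tested genes of each list by role, with the 8 genes described in red. Dio2 has the lowest value, Slc7a5 the highest, and 0 of these genes passed the adjusted threshold.

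Of 14 tested selenoprotein genes other than Dio2, 0 passed edgeR's adjusted threshold. At an unadjusted p below 0.05, 4 of the 14 were lower, beside 911 lower of all 13341 genes tested. A log2 fold change below 0 was found for 12 of the 14, with a median of -0.18. Of the 14, 6 did not overlap, all lower, where 18.5% of all genes were lower without overlap. The median was -0.08 with library totals alone and -0.06 with the authors' RPKM. Gpx3, a secreted glutathione peroxidase gene, was at 25.1, 21.8 and 25.0 CPM in the wild type libraries, against 18.2 and 16.1 CPM with NICcA (log2 fold change -0.48 with an SE of 0.13, adjusted p = 0.28). Selk, which encodes a selenoprotein of the endoplasmic reticulum, was at 64.8, 63.3 and 74.7 CPM, against 50.7 and 51.7 CPM (log2 fold change -0.40 with an SE of 0.11, adjusted p = 0.29). None of these differences came near that of Dio2 in size, but Dio2 was chosen for its difference. After Dio2 the lowest was Sepp1, chosen after its values were seen. It was at 312, 278 and 530 CPM in the wild type libraries, against 167 and 254 CPM with NICcA (log2 fold change -0.83 with an SE of 0.33, adjusted p = 0.34).

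The 7 genes that insert selenocysteine had a median of 0.01. Eefsec, the elongation factor that delivers the selenocysteine tRNA to the ribosome, was at 7.29, 7.83 and 5.93 CPM in the wild type libraries and higher in both NICcA libraries, at 11.7 and 11.96 CPM (log2 fold change 0.75 with an SE of 0.16, adjusted p = 0.27). Sepsecs, the enzyme that makes the selenocysteine on its tRNA, was at 6.73, 6.28 and 6.51 CPM, against 7.08 and 7.10 CPM (log2 fold change 0.12 with an SE of 0.13, adjusted p = 0.67).

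Other nuclear receptors that pair with RXR also differed in direction. Pparg, a lipid-sensing receptor gene, was at 35.6, 44.8 and 38.4 CPM in the wild type libraries, against 23.1 and 24.4 CPM with NICcA (log2 fold change -0.73 with an SE of 0.13, adjusted p = 0.27). Vdr, the vitamin D receptor gene, was at 4.77, 4.80 and 3.41 CPM, against 8.92 and 7.33 CPM (log2 fold change 0.91 with an SE of 0.21, adjusted p = 0.28). Of the 9 tested, 3 were lower and 2 higher without overlap, and the median was -0.15, which turned to 0.12 with the replicate block and was -0.01 on log2(RPKM + 0.1).

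Factors known to act upstream of Dio2 had a median of -0.06 over 6 tested genes, and 1 did not overlap. This was Adrb1, a beta-adrenergic receptor gene that signals through cyclic AMP, at 4.37, 9.13 and 5.48 CPM in the wild type libraries, against 2.44 and 3.67 CPM with NICcA (log2 fold change -1.05 with an SE of 0.37, adjusted p = 0.33). Leaving out 1 library gave -1.37 to -0.69. Nfkb1, an NF-kB subunit gene, was at 83.7, 94.9 and 80.4 CPM, against 136 and 91.7 CPM, so that 1 NICcA library stood high (log2 fold change 0.40 with an SE of 0.18, adjusted p = 0.37), and without NICcA replicate 2 its log2 fold change was 0.09.

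Genes whose values were most like those of Dio2 were found by the root mean square difference of log2 CPM, centred per gene, over the 5 libraries, among genes at a mean of at least 5 CPM. They were Bex1 (0.32 on the log2 scale), Slc27a6, a long-chain fatty acid transporter gene (0.35), Dhrs3, a retinaldehyde reductase gene (0.40), Chi3l3, the chitinase-like protein Ym1 (0.40), and Pltp, the phospholipid transfer protein gene (0.41), where the median over all such genes was 1.04. Bex1 was at 15.7, 28.0 and 33.7 CPM in the wild type libraries, against 6.79 and 8.66 CPM with NICcA. Dhrs3 was at 72.0, 85.8 and 126 CPM, against 28.8 and 40.5 CPM. In all 5 the NICcA libraries lay below every wild type library, which the choice by likeness to Dio2 brings with it, and all 5 were higher in NICcA replicate 3 than in replicate 2, where Dio2 was at 2.80 and 2.95 CPM.

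**Figure D5:**
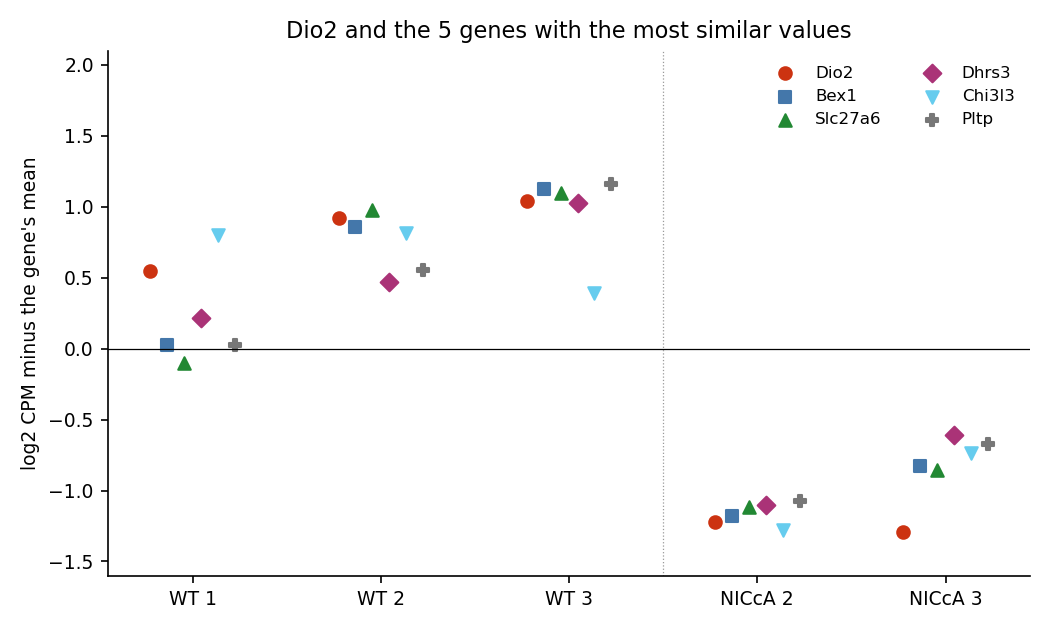
Log2 CPM minus each gene's own mean (y axis) in the 5 libraries (x axis; WT, wild type) for Dio2 and the 5 genes with the smallest root mean square difference from it. Dio2 alone among them is slightly lower in NICcA replicate 3 than in NICcA replicate 2.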

How the data were processed

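Messenger RNA of 5 macrophage libraries was sorted into groups by the labels' genotype. The deposited table used here gives, per the file headers, a raw read count and the authors' RPKM (reads scaled to length and depth) for 27457 RefSeq transcript rows, and a further deposited table has RPKM for 64528 rows. Of the 27456 shared rows, 6 RPKM values were unequal at a relative tolerance of 1e-05, and the further table was not used beyond this. Bowtie 0.12.2 and the build mm8 appear in the submitters' processing notes with no role; how reads were counted, and by strand or not, is not given there. Sequences come from RefSeq and GENCODE M21 on GRCm38, another build. Isoform rows share reads. In 46 of 47 rows a symbol turned into a date was restored by accession.

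Counts were fitted with edgeR 4.0.16 in R 4.3.3 (TMM, filterByExpr, glmQLFit, glmQLFTest, genotype alone), with Benjamini-Hochberg adjustment over all rows kept, at an adjusted p below 0.05, and were tested on simulated data. The SE was taken as the size of the log2 fold change over the root of its F statistic. Alternatives used DESeq2 1.42.0, limma 3.58.1, other scalings and filters, and each library left out. A prior count of 2 was used for log2 CPM. Figures used Python 3.11.15 and matplotlib 3.10.9. The members and gene lists were chosen with earlier results of these data known. Named genes are the 8 genes, Nr1d1, Notch1, Hes1, any pathway list gene called, otherwise the 2 of lowest p in a list, and the 5 genes most like Dio2.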

Additional observations from a re-analysis of the deposited data

How the results depend on the processing

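The log2 fold change of Dio2 stayed within its spread between libraries (-2.25 to -2.01) under every count-based alternative run. On log2(RPKM + 1) it was -0.91 and on log2(RPKM + 0.1) it was -1.77, since a pseudocount compresses a low gene. DESeq2 called 2 of the 8 genes (Dio2 and Slc16a10) among 527 genes, and the fit with no low-count filter called 1 of the 8 (Dio2) among 11 genes. Limma-voom and limma on log2(RPKM + 1) called 2 genes each. Leaving out 1 library called 0 to 44 genes over the whole table and 0 of the 8. Replicate numbers 2 and 3 occur in both groups. The deviations of same-numbered libraries from their group means correlated at 0.20 and 0.17 across genes. The deviations of the 2 NICcA libraries are mirror images of each other, so these values are tied and are not separate observations. With only 2 such pairs, the numbers were not taken to pair the samples. With the replicate block, the log2 fold change of Dio2 was -2.25 (SE 0.17), 0 of the 8 genes were called and 0 genes in all. The count of genes lower without overlap, with alternatives chosen after seeing the data, was 5 with library totals or RPKM and 6 to 7 without 1 library. Among the 8 genes, Rxrb and Ncor1 changed sign, each in 2 of 16 alternatives. Scaling by library totals alone moved the median of all genes by 0.11 on the log2 scale, and Ncor1, at -0.11 with TMM, was then at 0.00. For the other 7 genes and the list medians, 232 values moved by less than 1 SD between libraries and 40 by more. Over all alternatives the list medians changed sign in 3 settings each for corepressors, coactivators, T3 targets and upstream factors, 4 for selenocysteine insertion and 1 for RXR partners, and in 0 for the turnover, transporter, receptor and selenoprotein lists. Dio1, Dio3, Rxrg and Crym had too few counts to pass the low-count filter of the main fit.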
